A study of Homo sapiens with 12 samples.

Results

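The 9 genes described here belong to 2 linked systems by which a cell shows itself to T cells. HLA-B, HLA-C, HLA-E, B2M, TAP1, TAPBP and NLRC5 serve antigen presentation by MHC class I, and CD274 and PDCD1LG2 encode PD-L1 and PD-L2, the ligands of the inhibitory receptor PD-1. They were chosen by symbol, and each symbol matched 1 gene identifier, so that 9 of the 60617 genes in the deposited tables are described. The cells were A549, an established line from a human lung adenocarcinoma, cultured in DMEM with fetal bovine serum. One group of 4 libraries (siCo) came from cells given a non-targeting siRNA, labelled NTC. The other groups, of 4 libraries each, came from cells given 1 of 2 siRNA combinations against YAP and TAZ, named siYAP/TAZ#1 (treatment label Y1T2) and siYAP/TAZ#2 (treatment label Y2T3). RNA was taken 24 hours after transfection, and nothing in the labels names an added cytokine or immune cells. The series calls the libraries of a group biological replicates, all from 1 cell line.

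Class I molecules carry peptides from inside the cell to its surface, where CD8+ T cells and natural killer cells read them. Proteasomes cut proteins into peptides, the TAP transporter moves these into the endoplasmic reticulum, and tapasin (TAPBP) holds empty class I molecules at the transporter until a peptide fits. A class I molecule is a heavy chain paired with beta-2-microglobulin, and its genes are switched on by interferons, by NF-kB and by NLRC5, which joins a factor complex on a shared promoter module of S, X and Y boxes. PD-L1 and PD-L2 are also interferon-inducible, and they restrain T cells by engaging PD-1. YAP and TAZ are coactivators that bind DNA through TEAD factors.

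The promoters of the genes differ in which of these inputs their letters show. RefSeq windows on GRCh38.p14, covering the 250 bases before an annotated start, were at hand for 6 of the 9 genes. They were searched on both strands for the core of the interferon response element (ISRE, GAAANNGAAA), the gamma-activated site (GAS, TTCNNNGAA), the CCAAT box, the CRE core TGACG, a kappa-B site (GGGNNTTNCC) and the TEAD site CATTCC. The 6 stretches below hold the matches on which the description turns, each written 5′ to 3′ along its gene with the matched letters in capitals.
HLA-C: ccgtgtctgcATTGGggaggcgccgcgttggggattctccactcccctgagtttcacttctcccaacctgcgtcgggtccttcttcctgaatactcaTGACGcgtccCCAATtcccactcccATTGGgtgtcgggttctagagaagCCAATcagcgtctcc
HLA-B: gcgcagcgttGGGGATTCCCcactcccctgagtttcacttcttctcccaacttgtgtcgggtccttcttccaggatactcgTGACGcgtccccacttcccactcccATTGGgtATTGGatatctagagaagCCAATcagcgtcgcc
B2M: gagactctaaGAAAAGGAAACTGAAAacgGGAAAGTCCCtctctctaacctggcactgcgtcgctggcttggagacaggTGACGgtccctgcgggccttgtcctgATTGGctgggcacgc
TAP1: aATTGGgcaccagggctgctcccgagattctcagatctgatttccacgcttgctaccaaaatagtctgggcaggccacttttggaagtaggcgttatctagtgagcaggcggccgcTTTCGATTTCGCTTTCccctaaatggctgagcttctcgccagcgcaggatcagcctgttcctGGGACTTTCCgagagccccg
TAPBP: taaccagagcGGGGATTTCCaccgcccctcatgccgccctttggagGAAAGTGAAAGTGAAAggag
CD274: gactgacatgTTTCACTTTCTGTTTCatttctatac
In genome order on GRCh38.p14 these are chr6:31272134-31272294, chr6:31357221-31357366, chr6:32853757-32853954 and chr6:33314079-33314144 on the minus strand, and chr9:5450324-5450359 and chr15:44711363-44711482 on the plus strand.

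HLA-B and HLA-C, whose windows are alike, held 3 and 4 CCAAT boxes and 1 TGACG each, and no exact match to GAAANNGAAA. Only exact matches were counted, so an interferon element with other letters may be present. B2M, TAP1, TAPBP and CD274 each held 2 ISRE cores that share bases with each other, read on the opposite strand in TAP1 and CD274. Kappa-B letters stood in HLA-B, B2M, TAP1 and TAPBP. A GAS match stood in CD274 and in a further TAP1 window, outside the printed stretches, and no window of these genes held the TEAD site. Over all 35116 windows of the same length, the ISRE core was present in 3.02%, the kappa-B letters in 5.07%, the GAS in 6.57%, the TEAD site in 11.9%, TGACG in 21.2% and CCAAT in 32%. These are matches of letters in a reference sequence, not measured sites.

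The libraries held 29.6 to 38.3 (in 1e6) estimated counts, and 21581 genes passed the filter on low counts. The siRNA targets were lowered in every treated library: YAP1 stood at 121 ± 4.03 CPM (counts per 1e6, TMM scaled; SD, n = 4) in siCo against 18.7 ± 1.43 and 17.4 ± 1.19 CPM, and WWTR1, the gene of TAZ, at 241 ± 9.71 against 32.9 ± 1.14 and 32.4 ± 2.38 CPM. The epithelial markers KRT8, KRT18, KRT7, EPCAM and CDH1 together reached 6590 to 7510 CPM in siCo, 5440 to 6120 CPM with siYAP/TAZ#1 and 4430 to 6660 CPM with siYAP/TAZ#2. Of these, KRT7 fell (log2 changes of -0.65 and -0.85) and CDH1 rose (1.07 and 0.57). EPCAM also rose with both (0.52 and 0.47, adjusted p = 0.0329 and 0.0489 in edgeR). KRT18 was called lower with siYAP/TAZ#2 alone (-0.25, adjusted p = 0.0304), and KRT8 passed in neither comparison (adjusted p = 0.595 and 0.559). Of 4 fibroblast markers, COL1A1 rose with siYAP/TAZ#1 (0.47), and PDGFRA was called higher with siYAP/TAZ#2 (1.36). The siCo libraries of PDGFRA stood at 0.075 to 0.647 CPM, on both sides of the filter's floor of 0.292 CPM. All its treated libraries were above that floor. PDGFRA thus entered the test through the treated groups, where it was high, and its call is no support for a rise. The 4 together reached 104 to 116 CPM in siCo, 140 to 170 CPM with siYAP/TAZ#1 and 101 to 155 CPM with siYAP/TAZ#2. Of 8 leukocyte markers, CD3E, MS4A1 and NKG7 had at most 1 read in any library, and PTPRC, the pan-leukocyte marker, stood at 0.153 to 0.716 CPM. The summed level of the 8 was 27.9 to 31.7 CPM in siCo, and 33.9 to 37.0 and 39.1 to 49.2 CPM in the treated groups, of which CD68 was the largest part. CD68 did not rise (log2 changes of -0.22 and -0.05, adjusted p = 0.0591 and 0.697 in edgeR). The changes of PTPRC did not pass either (0.25 and 0.61, adjusted p = 0.695 and 0.266). ITGAX and CD14 rose with both combinations (log2 changes of 1.41 and 2.10, and of 1.38 and 1.67), and so did CD8A, from 0.247 to 0.555 and 0.635 CPM. The siCo mean of CD8A, from 5 to 13 reads per library, was under the filter's floor of 0.292 CPM. Every treated library was above that floor. CD8A therefore entered the test through the treated groups, where it was high, and its calls are no support for a rise. The part of these markers in the results below was not tested. PDCD1, the gene of PD-1 itself, had no read in any library.

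**Figure D1:**
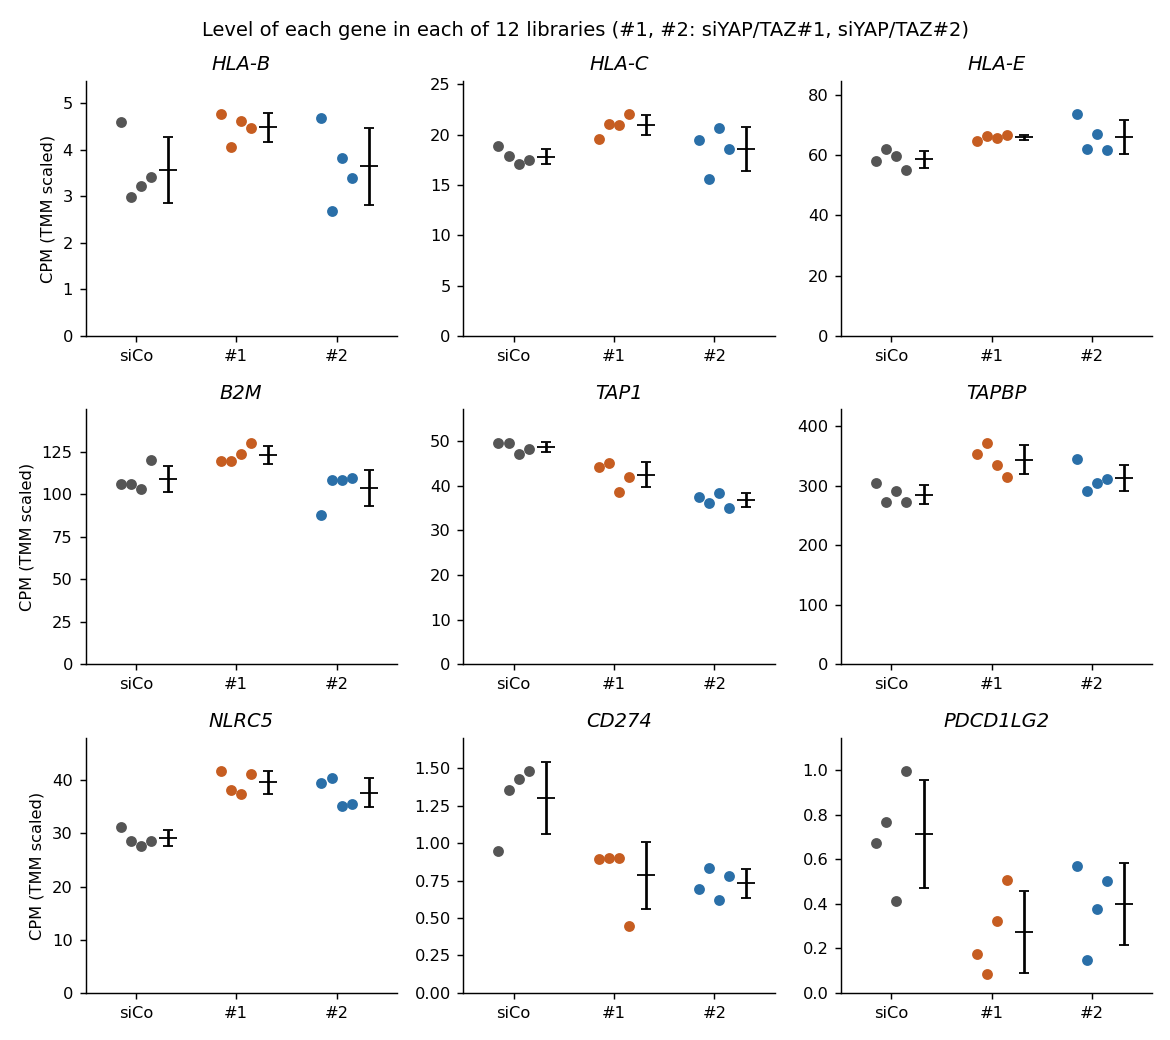
Level of each of the 9 genes in each of the 12 libraries, in CPM after TMM scaling on linear axes that start at 0, for siCo, siYAP/TAZ#1 (#1) and siYAP/TAZ#2 (#2). Points are libraries and bars are the mean ± SD over 4 libraries; NLRC5 is above its 4 siCo libraries in all 8 treated libraries, and TAP1 and CD274 are below theirs in all 8.

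NLRC5, the class I transactivator, rose with both siRNA combinations. With siYAP/TAZ#1, HLA-C, HLA-E and TAPBP rose as well, by 12.5% to 20.6%, while TAP1, CD274 and PDCD1LG2 fell. With siYAP/TAZ#2, HLA-E rose and TAP1 and CD274 fell. The threshold throughout was an adjusted p under 0.05 in edgeR's quasi-likelihood test over all 21581 genes, whatever the fold. For siYAP/TAZ#1 against siCo, 4 of the 9 genes were called higher, where 16.4% of all genes tested were, and 3 were called lower, where 18.5% of all genes were. For siYAP/TAZ#2, 2 were called higher beside 19.0% of all genes, and 2 lower beside 19.2%. The median log2 change of the 9 was 0.18 and 0.03, beside 0.02 and 0.02 over all genes tested. The genes thus did not move one way: the counts in each direction were small, and those for siYAP/TAZ#2 were near the background share. Both comparisons use the same siCo libraries. In bulk RNA, fewer cells that express a gene and less RNA per cell cannot be told apart.

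**Figure D2:**
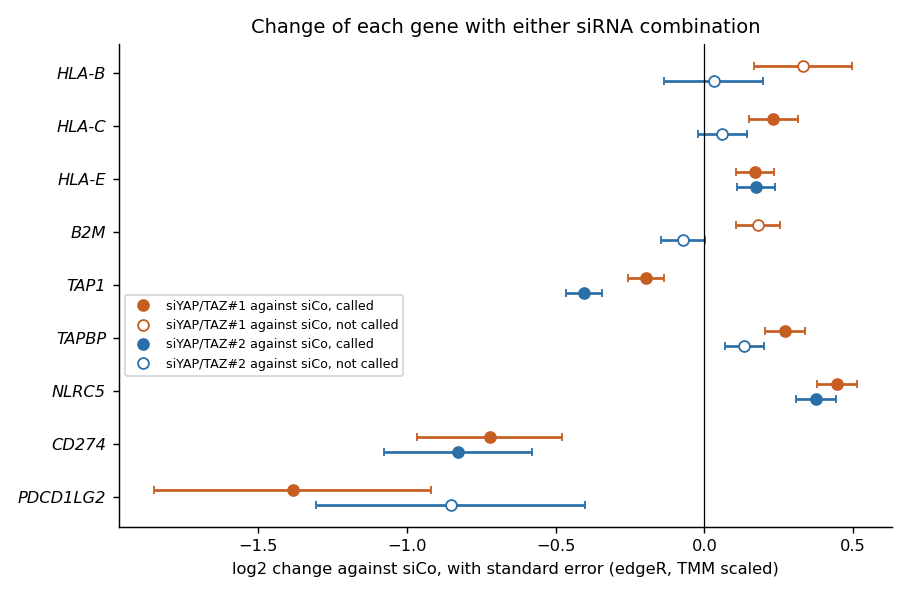
Log2 change of each gene against siCo with siYAP/TAZ#1 (orange) and siYAP/TAZ#2 (blue), with its standard error from edgeR on TMM-scaled counts. Filled points passed an adjusted p of 0.05 and open points did not; the class I genes lie between -0.40 and 0.45, and the PD-1 ligands lie below 0 with wider errors.

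NLRC5 (ENSG00000140853, GRCh38 chromosome 16, 56989485 to 57083531, plus strand) is the member of the NLR family that drives class I transcription. In siCo it stood at 31.2, 28.6, 27.7 and 28.6 CPM in replicates 1 to 4. With siYAP/TAZ#1 it stood at 41.7, 38.1, 37.4 and 41.2 CPM, and with siYAP/TAZ#2 at 39.6, 40.4, 35.2 and 35.6 CPM. Every treated library was above every siCo library, and the treated groups overlapped each other. The log2 changes were 0.45 ± 0.07 (standard error; adjusted p = 7.52e-05) and 0.37 ± 0.07 (adjusted p = 0.000339), that is 36.2% and 29.6% higher. The call held whichever library was left out, and the difference between the combinations did not pass (log2 -0.07, adjusted p = 0.584). On the authors' TPM values the change for siYAP/TAZ#1 was 0.68 and missed the threshold (limma, adjusted p = 0.093). On that scale the median of all genes was itself shifted up by 0.19. Over the 9 alternatives other than leaving out a library, the change was 0.354 to 0.73, and the call was lost in 2.

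Of the heavy chains that NLRC5 acts on, HLA-C (ENSG00000204525, chromosome 6, 31268749 to 31272130, minus strand) is a classical one that is also a main ligand of killer-cell receptors. Its siCo libraries held 18.8, 17.8, 17.1 and 17.5 CPM. With siYAP/TAZ#1 they held 19.6, 21.1, 21 and 22 CPM, all above siCo, and HLA-C rose by 17.4% (log2 0.23 ± 0.08, adjusted p = 0.0368). With siYAP/TAZ#2 the values of 19.4, 15.6, 20.7 and 18.5 CPM lay on both sides of siCo, and the log2 change of 0.06 did not pass the test (adjusted p = 0.623). The call for siYAP/TAZ#1 was lost without replicate 2, 3 or 4 of siCo, or without replicate 2, 3 or 4 of siYAP/TAZ#1, with adjusted p from 0.0733 to 0.101, and on log2(TPM + 1) (0.58, adjusted p = 0.0914). The difference between the combinations, log2 -0.17, did not pass either (adjusted p = 0.196).

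HLA-E (ENSG00000204592, chromosome 6, 30489467 to 30494205, plus strand) presents leader peptides of other class I chains to the NKG2A receptor of natural killer cells. It read 58.0, 61.9, 59.7 and 55.0 CPM in siCo, 64.9, 66.4, 65.7 and 66.7 CPM with siYAP/TAZ#1, and 73.6, 61.9, 67.1 and 61.7 CPM with siYAP/TAZ#2. The siYAP/TAZ#1 libraries were all above siCo and close together, whereas replicate 4 of siYAP/TAZ#2 was inside the siCo range. HLA-E rose by 12.5% and 12.7% (log2 0.17 ± 0.06 for each, adjusted p = 0.0476 and 0.0412), and the combinations had nearly the same mean (log2 0.00, adjusted p = 0.988). Both calls sat at the threshold. That for siYAP/TAZ#1 was lost without replicate 1, 3 or 4 of siCo, any replicate of siYAP/TAZ#1, or replicate 3 or 4 of siYAP/TAZ#2 (adjusted p from 0.0517 to 0.132), and that for siYAP/TAZ#2 without replicate 1, 3 or 4 of siCo, replicate 3 or 4 of siYAP/TAZ#1, or replicate 1 or 3 of siYAP/TAZ#2 (0.0527 to 0.0993). With the replicate number as a block the adjusted p was 0.0568 and 0.0529, and with RLE scaling 0.0537 and 0.0537. Both calls were also lost with no filter (0.052 and 0.0642) and on TMM-scaled TPM (0.297 and 0.0713), that for siYAP/TAZ#1 on log2(TPM + 1) (0.127) and that for siYAP/TAZ#2 with only the 8 libraries compared (0.0813).

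HLA-B (ENSG00000234745, chromosome 6, 31269491 to 31357188, minus strand), in many tissues a strongly interferon-inducible classical chain, was the lowest of the class I genes. It stood at 4.59, 2.99, 3.23 and 3.41 CPM in siCo, at 4.76, 4.06, 4.62 and 4.47 CPM with siYAP/TAZ#1, and at 4.67, 2.68, 3.82 and 3.38 CPM with siYAP/TAZ#2. The groups overlapped, since replicate 1 of siCo was as high as the siYAP/TAZ#1 libraries. The log2 changes were 0.33 ± 0.16 (adjusted p = 0.137) and 0.03 ± 0.17 (adjusted p = 0.91). Without replicate 1 of siCo the change for siYAP/TAZ#1 was 0.47 and passed (adjusted p = 0.0404), and it passed with the replicate block (0.0463). For siYAP/TAZ#2 the sign turned without replicate 2 of siCo (-0.04), replicate 3 of siCo (-0.01) or replicate 1 of siYAP/TAZ#2 (-0.10).

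HLA reads are hard to assign, because the genes resemble each other and vary between people. Estimated counts of HLA-B, HLA-C and HLA-E were not whole (tolerance 0.01) in 12 of 12 libraries, so part of their reads was shared out between genes and their levels are uncertain. The same held for TAP1 and TAPBP in 12 of 12 libraries, B2M in 11 and NLRC5 in 5, whereas the counts of CD274 and PDCD1LG2 were whole in all. In GENCODE 29 the HLA-B model spans the HLA-C gene on the same strand and shares 33 exonic bases with it.

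B2M (ENSG00000166710, chromosome 15, 44711487 to 44718877, plus strand) encodes beta-2-microglobulin, the light chain that all class I molecules need to leave the endoplasmic reticulum. Its levels were 106.1, 106.0, 103.2 and 120.3 CPM in siCo, 119.6, 119.4, 123.8 and 130.4 CPM with siYAP/TAZ#1, and 87.7, 108.6, 108.7 and 109.6 CPM with siYAP/TAZ#2. The siYAP/TAZ#1 libraries were high, but replicate 4 of siCo stood among them, and replicate 1 of siYAP/TAZ#2 was the lowest of all 12. Against siCo the log2 changes were 0.18 ± 0.07 (adjusted p = 0.0746) and -0.07 ± 0.07 (adjusted p = 0.5). The combinations differed by -0.25 ± 0.07 on the log2 scale (siYAP/TAZ#2 against siYAP/TAZ#1, adjusted p = 0.0307). Without replicate 4 of siCo, or without replicate 1 of siYAP/TAZ#2, the rise with siYAP/TAZ#1 passed (adjusted p = 0.0301 and 0.00947), and it also passed with the replicate block (0.0454). The difference between the combinations was lost without replicate 1 or 2 of siCo or any replicate of siYAP/TAZ#1 (adjusted p from 0.0531 to 0.0962), with library size alone (0.143), with only the 8 libraries compared (0.054) and on all TPM scales.

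TAP1 and TAPBP, which work side by side in the peptide-loading complex, were called in opposite directions with siYAP/TAZ#1. With siYAP/TAZ#2 the fall of TAP1 was called and the change of TAPBP was not. TAP1 (ENSG00000168394, chromosome 6, 32845209 to 32853978, minus strand) is a subunit of the peptide transporter. It stood at 49.7, 49.6, 47.2 and 48.3 CPM in siCo, at 44.2, 45.2, 38.7 and 42.0 CPM with siYAP/TAZ#1, and at 37.5, 36.2, 38.5 and 35.0 CPM with siYAP/TAZ#2. The 3 groups did not overlap, with siCo highest and siYAP/TAZ#2 lowest. TAP1 fell by 12.8% and 24.5% (log2 -0.20 ± 0.06, adjusted p = 0.0172, and -0.40 ± 0.06, adjusted p = 5.52e-05), and the combinations differed by -0.21 ± 0.06 (adjusted p = 0.027). The call for siYAP/TAZ#1 was lost without its replicate 3 (0.0696), and that for the difference without replicate 1, 2 or 4 of siYAP/TAZ#1 or replicate 2 or 4 of siYAP/TAZ#2 (0.0548 to 0.106). With library size alone as the scaling the change for siYAP/TAZ#1 was -0.02 (adjusted p = 0.813), and this call was also lost with no filter (-0.17, 0.139) and on TMM-scaled TPM (-0.16, 0.134). The difference was lost in the same 3 settings and with only the 8 libraries compared (0.0569 to 0.107), while the fall with siYAP/TAZ#2 held with library size alone (-0.22, adjusted p = 0.0128). On the TPM scale, where the median of all genes was itself shifted up by 0.19 and 0.24, the TAP1 changes were 0.16 and 0.02 and were not called. TAP1 shares 456 exonic bases with the antisense gene PSMB8-AS1, and use of strand in counting is not given in the sources used here.

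TAPBP (ENSG00000231925, chromosome 6, 33299694 to 33314387, minus strand), encoding tapasin, had the highest read count of the 9 genes. It read 303.9, 273.0, 290.3 and 272.1 CPM in siCo and 352.7, 371.7, 334.8 and 314.9 CPM with siYAP/TAZ#1, which were all above siCo. With siYAP/TAZ#2 it read 344.1, 291.2, 304.1 and 311.3 CPM, of which replicate 2 was inside the siCo range. TAPBP rose by 20.6% with siYAP/TAZ#1 (log2 0.27 ± 0.07, adjusted p = 0.00468), and the 9.76% with siYAP/TAZ#2 did not pass (adjusted p = 0.133). The difference between the combinations was -0.14 (adjusted p = 0.219), and it passed without replicate 1 of siYAP/TAZ#2 (-0.18, adjusted p = 0.0265). The call against siCo held whichever library was left out, and was lost on log2(TPM + 1) (0.62, adjusted p = 0.0509) and on TMM-scaled TPM (0.27, adjusted p = 0.106). With library size alone TAPBP also passed with siYAP/TAZ#2 (0.32, adjusted p = 0.000188).

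Ratios within a library do not depend on the scaling between libraries. The estimated counts of TAPBP were 5.50 to 6.15 times those of TAP1 in siCo, 7.50 to 8.65 times in the siYAP/TAZ#1 group and 7.90 to 9.19 times in the siYAP/TAZ#2 group. NLRC5 stood to TAP1 at 0.577 to 0.629 in siCo, 0.844 to 0.981 in the siYAP/TAZ#1 group and 0.914 to 1.11 in the siYAP/TAZ#2 group. HLA-E stood to TAP1 at 1.14 to 1.26, then at 1.47 to 1.70 and 1.71 to 1.96. In all 3 ratios every treated library exceeded every siCo library, so these genes changed unequally under any scaling by a factor per library. The ratios were chosen after the changes were seen and are given without a test.

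**Figure D3:**
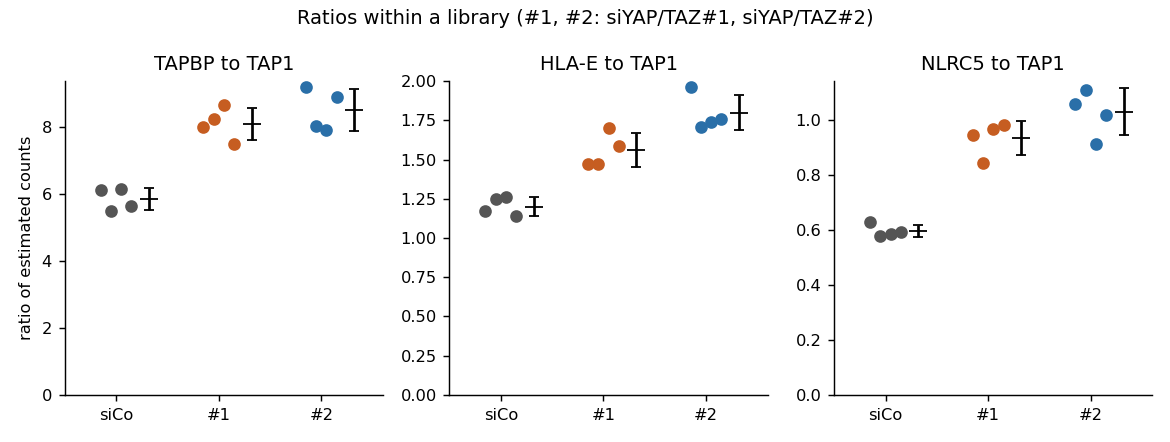
Ratio of the estimated counts of TAPBP, HLA-E and NLRC5 to those of TAP1 in the same library, on linear axes from 0, for siCo, siYAP/TAZ#1 (#1) and siYAP/TAZ#2 (#2). Points are libraries and bars are the mean ± SD over 4; the siCo libraries lie below all treated libraries in each ratio, for example at 5.50 to 6.15 against 7.50 to 9.19 for TAPBP.

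The genes of the PD-1 ligands lie next to each other on chromosome 9, with 40003 bases between them, and both were barely expressed. CD274 (ENSG00000120217, 5450503 to 5470566, plus strand), the gene of PD-L1, had 31, 44, 38 and 52 reads in siCo, 31, 32, 36 and 16 with siYAP/TAZ#1, and 22, 28, 23 and 25 with siYAP/TAZ#2. In CPM this was 0.948, 1.36, 1.43 and 1.48 in siCo, 0.894, 0.901, 0.900 and 0.450 with siYAP/TAZ#1, and 0.695, 0.835, 0.618 and 0.783 with siYAP/TAZ#2. All treated libraries were below all siCo libraries, by a narrow margin to replicate 1 of siCo, and the low value with siYAP/TAZ#1 was replicate 4. CD274 fell by 39.4% and 43.7% (log2 -0.72 ± 0.24, adjusted p = 0.03, and -0.83 ± 0.25, adjusted p = 0.0142). The combinations did not differ detectably at this depth (log2 -0.11, adjusted p = 0.865). The call for siYAP/TAZ#1 was lost without replicate 2, 3 or 4 of siCo or replicate 4 of siYAP/TAZ#1 (adjusted p from 0.0631 to 0.0861), while that for siYAP/TAZ#2 held whichever library was left out.

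The fall of CD274 was a property of the counts and not of the authors' TPM values. In TPM the gene stood at 0.442, 0.289, 0.40 and 0.521 in siCo, 0.371, 0.24, 0.688 and 0.618 with siYAP/TAZ#1, and 0.330, 1.14, 0.480 and 0.695 with siYAP/TAZ#2. These groups overlapped, and on log2(TPM + 1) the changes were 0.06 and 0.21 and were not called. After TMM scaling of the TPM values they were -0.06 and 0.06. The median TPM that CD274 received per CPM of reads was 0.345 in siCo, 0.566 with siYAP/TAZ#1 and 0.783 with siYAP/TAZ#2, whereas for PDCD1LG2 it was 0.284, 0.297 and 0.335. That quotient moves with the transcript length by which reads were divided, and the transcripts behind it were not analysed here. With library size alone as the scaling, the log2 changes in counts were -0.55 and -0.64 and missed the threshold (adjusted p = 0.0942 and 0.0532), and with no filter that for siYAP/TAZ#1 did too (0.0832).

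PDCD1LG2 (ENSG00000197646, chromosome 9, 5510570 to 5571254, plus strand), the gene of PD-L2, had 22, 25, 11 and 35 reads in siCo, 6, 3, 13 and 18 with siYAP/TAZ#1, and 18, 5, 14 and 16 with siYAP/TAZ#2. The corresponding levels were 0.673, 0.770, 0.413 and 0.996 CPM, then 0.173, 0.085, 0.325 and 0.506 CPM, and then 0.568, 0.149, 0.376 and 0.501 CPM. Treated libraries were mostly lower, but they overlapped siCo through its replicate 3. The log2 change was -1.39 ± 0.47 with siYAP/TAZ#1 (61.7% lower, adjusted p = 0.0296) and -0.85 ± 0.45 with siYAP/TAZ#2 (adjusted p = 0.156). The call was lost without replicate 1, 2 or 4 of siCo or replicate 1, 2 or 3 of siYAP/TAZ#1 (adjusted p from 0.0503 to 0.0984). It was also lost with library size alone (-1.21, adjusted p = 0.056), on log2(TPM + 1) (-0.12, 0.31) and on log2(TPM + 0.1) (-0.58, 0.241). A count of 10 amounted to 0.261 to 0.338 CPM in these libraries. PDCD1LG2 was above the filter's floor of 0.292 CPM in 4 siCo libraries, 2 with siYAP/TAZ#1 and 3 with siYAP/TAZ#2, while the other 8 genes were above it in all 12. PDCD1LG2 therefore entered the test partly through the group where it was highest.

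The changes can be set beside the promoter letters printed above. Of the 4 genes with ISRE cores, TAP1 and CD274 fell with both combinations, TAPBP rose with siYAP/TAZ#1 and B2M passed against siCo in neither comparison. HLA-B and HLA-C held CCAAT boxes and TGACG and no exact match to the ISRE core letters. Their log2 changes were 0.33 and 0.23 with siYAP/TAZ#1 and 0.03 and 0.06 with siYAP/TAZ#2. Interferon elements with other letters were not searched for. A GAS match was found in CD274 and in the further window of TAP1, but not in the TAP1 window with the ISRE cores. No other of these genes had a further window to search, and the GAS stood in 6.57% of all windows. With 6 genes this is a description, and a link between letters and changes was not tested. No window was given for NLRC5, HLA-E or PDCD1LG2.

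Levels of different genes are comparable only per length. In siCo the order by mean TPM (SD, n = 4) was B2M at 144.6 ± 38.4, TAPBP at 86.6 ± 17.0, HLA-E at 16.2 ± 2.30, TAP1 at 10.9 ± 2.32, NLRC5 at 9.48 ± 2.64, HLA-C at 8.30 ± 1.65, HLA-B at 2.04 ± 0.677, CD274 at 0.413 ± 0.097 and PDCD1LG2 at 0.194 ± 0.095. Library ranges of neighbours overlapped from HLA-E through TAP1 and NLRC5 to HLA-C, between B2M and TAPBP, and between CD274 and PDCD1LG2. They did not overlap between TAPBP and HLA-E, HLA-C and HLA-B, or HLA-B and CD274. In both treated groups TAP1 stood sixth, after NLRC5 and HLA-C, though its range overlapped that of HLA-C. A single RNA, MIR3648-2, took 11.4% to 19.7% of all TPM in siCo, 5.52% to 16.5% in the siYAP/TAZ#1 libraries and 4.8% to 16.3% in the siYAP/TAZ#2 libraries, and its part in the shift of TPM values was not tested.

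**Figure D4:**
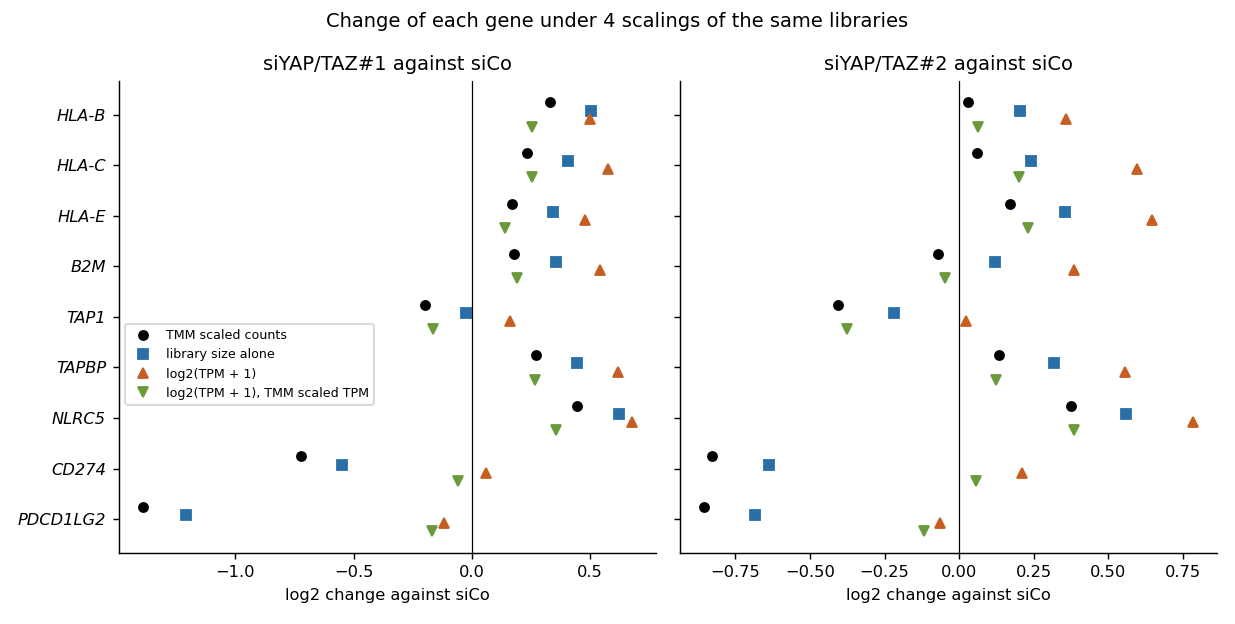
Log2 change of each gene against siCo, for siYAP/TAZ#1 (left) and siYAP/TAZ#2 (right), from TMM-scaled counts, counts scaled by library size alone, log2(TPM + 1), and log2(TPM + 1) after TMM scaling of the TPM values. Among the class I genes NLRC5 has the highest and TAP1 the lowest change on each scale, and every gene lies further right on unscaled TPM than on TMM-scaled counts; CD274 and PDCD1LG2 lie near 0 on both TPM scales, where the added 1 exceeds their level.

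Around these 9 genes, 11 lists of 82 other genes of the same pathways were examined, of which 72 were tested. With siYAP/TAZ#1, 16 of the 72 rose and 19 fell, and with siYAP/TAZ#2, 18 rose and 18 fell, with median log2 changes of 0.01 and 0.01. Each count below is to be read beside the shares of all genes called higher and lower, 16.4% and 18.5% with siYAP/TAZ#1 and 19.0% and 19.2% with siYAP/TAZ#2. Genes are named where both combinations gave a call in the same direction, and others are marked as named after their values were seen. Their levels are CPM as mean ± SD over 4 libraries in the order siCo, siYAP/TAZ#1 and siYAP/TAZ#2, and their changes are log2 values in the order siYAP/TAZ#1, siYAP/TAZ#2.

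Among the other loading and trimming genes, 3 of 7 rose and 1 fell with each combination. TAP2, the partner subunit of TAP1 in the transporter, fell from 38.4 ± 4.00 to 30.2 ± 1.35 and 21 ± 1.16 CPM, with changes of -0.35 and -0.87 (adjusted p = 0.00167 and 2.04e-07). Like TAP1 it was lower with siYAP/TAZ#2 than with siYAP/TAZ#1 (-0.52, adjusted p = 0.000135). The aminopeptidases ERAP1 and ERAP2, which trim peptides inside the endoplasmic reticulum, rose by 0.38 and 0.37 and by 0.59 and 0.47. ERAP1 went from 25.6 ± 1.18 to 33.4 ± 1.75 and 33.2 ± 2.88 CPM.

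Of the 5 immunoproteasome genes, 2 rose with siYAP/TAZ#1 and 1 with siYAP/TAZ#2, and none fell. PSMB8, a catalytic subunit that yields peptides suited to class I, rose from 8.69 ± 0.693 to 11.7 ± 0.893 and 12 ± 1.17 CPM (changes of 0.43 and 0.47, adjusted p = 0.00141 and 0.000642). Its neighbour subunit PSMB9, whose gene overlaps the TAP1 locus on the opposite strand without shared exons and which is named after its values were seen, stood at 4.98 ± 0.439, 5.83 ± 0.128 and 5.76 ± 0.211 CPM. Every treated library of PSMB9 was above siCo, but the changes of 0.23 and 0.21 missed the threshold (adjusted p = 0.0637 and 0.0838). Among the 3 constitutive counterparts, 1 and 2 fell, of which PSMB7 fell with both (-0.18 and -0.22), though its change was 0.16 and 0.20 on log2(TPM + 1). The PSMB7 call for siYAP/TAZ#1 was lost without replicate 2 or 3 of siCo or replicate 1 of siYAP/TAZ#1 (adjusted p from 0.0514 to 0.0682).

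Of the other heavy chains, MR1, which presents microbial vitamin metabolites to MAIT cells, rose from 8.93 ± 0.747 to 16.2 ± 0.538 and 15.6 ± 2.34 CPM (0.86 and 0.80, adjusted p = 5.98e-06 and 1.14e-05). HFE, a class I-like regulator of iron uptake and named after its values were seen, went opposite ways: it rose by 0.47 with siYAP/TAZ#1 and fell by 0.43 with siYAP/TAZ#2. The combinations differed in HFE by -0.90 (adjusted p = 7.25e-07). Over the list, 2 of 4 tested genes rose with siYAP/TAZ#1, and 1 rose and 1 fell with siYAP/TAZ#2.

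Of the 7 factors that bind the class I promoter module with NLRC5, RFX5, a subunit of the X-box complex, rose by 0.26 and 0.39 (36.1 ± 0.927, 43.1 ± 0.531 and 47.3 ± 2.46 CPM). NFYC, a subunit of the CCAAT-binding factor, fell by 0.26 and 0.20, but its change was 0.05 and 0.19 on log2(TPM + 1). In all, 1 rose and 2 fell with siYAP/TAZ#1, and 2 rose and 2 fell with siYAP/TAZ#2.

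Of 15 interferon signalling genes, 2 rose and 6 fell with siYAP/TAZ#1, and 3 rose and 5 fell with siYAP/TAZ#2, the numbers that rose being near the shares of all genes. IRF9, the DNA-binding subunit of the interferon-stimulated factor ISGF3, rose from 7.10 ± 0.665 to 19.6 ± 2.29 and 17.4 ± 1.59 CPM (1.46 and 1.29, adjusted p = 1.81e-08 and 6.05e-08). The feedback inhibitors of JAK kinases parted: SOCS1 rose by 0.86 and 1.40, and SOCS3 fell by 1.49 and 1.55, from 119.7 ± 9.67 to 42.7 ± 4.68 and 41.0 ± 5.60 CPM. The receptor chain IFNGR2 (-0.25 and -0.38), the kinase JAK1 (-0.36 and -0.27) and STAT3 (-0.39 and -0.32) fell with both. On log2(TPM + 1) the signs of IFNGR2 and STAT3 turned in both comparisons (0.04 and 0.02, 0.03 and 0.14), and that of JAK1 turned for siYAP/TAZ#2 (0.12).

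The combinations parted in STAT2 and IRF1, which are named after their values were seen. STAT2, a further ISGF3 subunit, fell from 26.6 ± 0.963 to 19.3 ± 1.69 CPM with siYAP/TAZ#1 and rose to 40.2 ± 3.88 CPM with siYAP/TAZ#2 (changes of -0.46 and 0.60, difference 1.06, adjusted p = 7.59e-08). The fall was not seen on log2(TPM + 1), where STAT2 changed by 0.27 with siYAP/TAZ#1. IRF1, an activator of class I and PD-L1 genes, stood at 24.4 ± 0.379, 24.6 ± 0.932 and 19.6 ± 2.05 CPM and fell with siYAP/TAZ#2 (-0.32, adjusted p = 0.00218, 0.08 on log2(TPM + 1)). The difference between the combinations in IRF1 was -0.33 (adjusted p = 0.00418).

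In the NF-kB list of 6 genes, 1 rose and 2 fell with siYAP/TAZ#1 and 2 fell with siYAP/TAZ#2. NFKB2, the precursor of p52, fell by 0.63 and 0.76, from 143 ± 8.26 to 92.2 ± 6.48 and 84.1 ± 17.8 CPM. NFKBIA, which encodes the inhibitor IkB-alpha, fell by 0.34 and 0.31, with a change of 0.08 for siYAP/TAZ#2 on log2(TPM + 1). Without replicate 3 of siCo the NFKBIA call for siYAP/TAZ#2 was lost (adjusted p = 0.0589).

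Of 6 genes that bear on how long PD-L1 protein lasts, 4 fell and none rose with siYAP/TAZ#1, beside 18.5% and 16.4% of all genes, and 2 rose and 1 fell with siYAP/TAZ#2, beside 19.0% and 19.2%. In the direct comparison of siYAP/TAZ#2 with siYAP/TAZ#1, 4 of the 6 were higher and none lower, where 8.20% of all genes were called higher. These were CMTM6, CMTM4, GSK3B and SPOP, and CSNK2A1 and COPS5 did not pass (adjusted p = 0.19 and 0.875). CMTM6, which keeps PD-L1 out of lysosomes, stood at 49.0 ± 2.88, 37.7 ± 1.08 and 49.1 ± 8.35 CPM, and its relative CMTM4 at 84.8 ± 1.45, 52.3 ± 2.09 and 94.2 ± 7.84 CPM. All but CSNK2A1 are named after their values were seen. The changes of CMTM6 were -0.38 and 0.00, with 0.02 for siYAP/TAZ#1 on log2(TPM + 1), and those of CMTM4 were -0.70 and 0.15. The differences between the combinations were 0.38 for CMTM6 (adjusted p = 0.0122, 0.0531 without replicate 3 of siYAP/TAZ#2) and 0.85 for CMTM4 (adjusted p = 6.29e-08). GSK3B, a kinase that marks PD-L1 for degradation, stood at 131.1 ± 4.69, 118.6 ± 1.56 and 146.8 ± 4.97 CPM, with changes of -0.14 (adjusted p = 0.0333) and 0.16 (adjusted p = 0.0159) and a difference of 0.31 (adjusted p = 0.000332). The sign of the first turned with library size alone (0.03) and on log2(TPM + 1) (0.19), and its call was lost in 7 of 12 fits that each left out 1 library (replicates 1, 3 and 4 of siCo and every replicate of siYAP/TAZ#1; adjusted p from 0.0522 to 0.0832). The second was lost without replicate 2 of siCo (0.0564) or replicate 4 of siYAP/TAZ#2 (0.062). SPOP, an adaptor of a ubiquitin ligase that turns PD-L1 over, stood at 26.9 ± 2.08, 29.3 ± 1.54 and 35.2 ± 3.82 CPM and rose with siYAP/TAZ#2 (0.39, adjusted p = 0.00132). Its difference of 0.26 (adjusted p = 0.0394) was lost in 8 of 12 such fits (replicate 1 of siCo, every replicate of siYAP/TAZ#1, and replicates 2, 3 and 4 of siYAP/TAZ#2; 0.0536 to 0.121). CSNK2A1, a catalytic subunit of casein kinase 2, fell by 0.37 and 0.21, with changes of 0.10 and 0.33 on log2(TPM + 1). The second of these calls was lost in 8 of 12 fits that each left out 1 library (all siCo replicates, replicates 1, 2 and 3 of siYAP/TAZ#1, and replicate 4 of siYAP/TAZ#2; adjusted p from 0.0532 to 0.128).

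**Figure D5:**
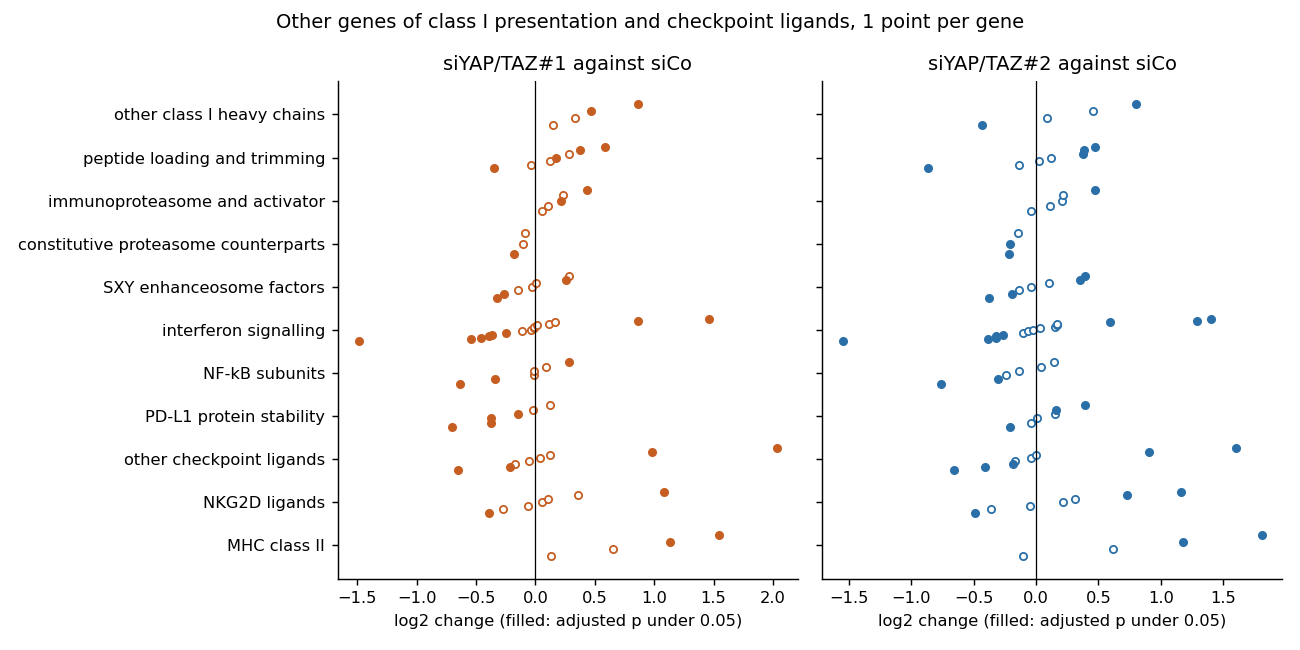
Log2 change against siCo of the 72 other tested genes of the 11 pathway lists, 1 point per gene, for siYAP/TAZ#1 (left) and siYAP/TAZ#2 (right). Filled points passed an adjusted p of 0.05 and open points did not. Calls lie on both sides of 0 in most lists. The MHC class II calls lie to the right, and SOCS3, at -1.49 and -1.55, is the point farthest to the left.

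Of the 12 other checkpoint ligands, 8 were tested: 2 rose and 2 fell with siYAP/TAZ#1, and 2 rose and 3 fell with siYAP/TAZ#2. PVR, the ligand of TIGIT and CD226, fell by 0.65 and 0.66, from 352.5 ± 5.59 to 224.9 ± 12.1 and 223.3 ± 9.74 CPM (adjusted p = 1.44e-07 and 9.67e-08). LGALS9, encoding the TIM-3 ligand galectin-9, rose by 0.98 and 0.91, from 1.02 ± 0.295 to 2.02 ± 0.197 and 1.92 ± 0.244 CPM. TNFRSF14, the partner of BTLA, rose from 1 to 5 reads per siCo library to 10 to 22 and 7 to 15. All its siCo libraries were under the filter's floor of 0.292 CPM, so it entered the test through the treated groups, where it was high, and its count among those that rose is no support. In the list of NKG2D ligands, 1 of 7 rose and 1 fell with siYAP/TAZ#1, and 2 rose and 1 fell with siYAP/TAZ#2. MICA fell by 0.39 and 0.49 (36.9 ± 1.39, 28.2 ± 2.37 and 26.3 ± 2.15 CPM), and ULBP1 rose by 1.08 and 1.16 (1.00 ± 0.35, 2.15 ± 0.184 and 2.27 ± 0.197 CPM).

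MHC class II genes, which professional presenting cells use for peptides from outside, had 4 of 8 members above the filter, and 2 of these rose with each combination. HLA-DMB rose from 5.47 ± 0.355 to 16.0 ± 1.70 and 19.1 ± 1.35 CPM (1.55 and 1.81, adjusted p = 3.64e-09 and 5.75e-10), and HLA-DMA from 1.20 ± 0.152 to 2.63 ± 0.24 and 2.73 ± 0.455 CPM (1.13 and 1.18). Their products form HLA-DM, which exchanges peptides on class II molecules. Of the class II chains themselves, HLA-DPB1 was tested and did not pass (0.65 and 0.61, adjusted p = 0.388 and 0.417). HLA-DRA, HLA-DRB1 and HLA-DPA1, like the invariant chain CD74, were below the filter. The other tested gene of the list, the transactivator CIITA, did not pass (0.13 and -0.11, adjusted p = 0.396 and 0.492). The leukocyte markers ITGAX, CD14 and CD8A rose in the same libraries, by the values and with the limit for CD8A given above. CD68, the most abundant of these markers, and PTPRC did not pass, and CD3E, MS4A1 and NKG7 stayed at 1 read or none.

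Between the combinations, 2 of the 9 genes were called lower with siYAP/TAZ#2 than with siYAP/TAZ#1, where 6.92% of all genes were, and none was called higher. These were B2M and TAP1, with the values given above. The median log2 difference of the 9 was -0.14, beside 0.01 for all genes tested.

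Genes whose pattern over the 12 libraries was most like that of each gene were found by the root mean square difference of standardised log2 CPM, among 11644 genes with a mean of at least 5 CPM. Close matches were C14orf132 for NLRC5 (0.207) and ZFX for B2M (0.212), followed by SCRN2 for HLA-E (0.275) and SMO for TAPBP (0.284). The likeness was weaker for NDUFB8 with HLA-C (0.441), GTPBP8 with PDCD1LG2 (0.484), ENSG00000269958 with CD274 (0.497) and C22orf39 with HLA-B (0.516). Further matches were MIR22HG and GSK3A for TAP1 (0.238 and 0.245), CLIP3 and MTMR11 for NLRC5 (0.276 and 0.278), and CYP51A1 and TMEM97 for B2M (0.257 and 0.281). HLA-B, CD274 and PDCD1LG2 had means under 5 CPM and could not be found as matches. None of the other 6 genes was among the 3 nearest of another. With library size alone as the scaling, all 3 nearest genes of HLA-C and TAPBP were found again, 2 of 3 for TAP1, NLRC5 and CD274, 1 of 3 for HLA-B and B2M, and none for HLA-E and PDCD1LG2.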

How the data were processed

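RNA sequencing of 12 A549 libraries was analysed, with groups and replicate numbers taken from the sample titles. For each library the authors deposited a table of estimated counts per gene, with no scaling, and a table of TPM values. Trim Galore 0.6.4, kallisto 0.4.6 and GRCh38.p13 are named in the submitters' processing notes. How transcripts were summed to genes, and any use of strand, are not given in the sources used here. Gene identifiers numbered 60617, with 58444 in GENCODE 29, which gave coordinates, and 60357 in a table of names. After rounding to whole numbers, the counts of all 12 libraries were fitted together in R 4.3.3 by edgeR 4.0.16 (filterByExpr defaults, TMM scaling, minimum count 10, group as the only term, quasi-likelihood F test, Benjamini-Hochberg over 21581 genes). The biological coefficient of variation was 0.105. The code was tested on simulated counts. P-values set the difference between groups against the spread of libraries within groups, and all libraries come from 1 line.

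The 9 genes and all lists were chosen with earlier results of these data known. Named were the 9 genes, every list gene called in the same direction against siCo with both combinations, the 3 genes most like each of the 9, and 8 genes picked after their values were seen (HFE, STAT2, IRF1, CMTM6, CMTM4, GSK3B, SPOP and PSMB9). COPS5, HLA-DPB1, CIITA and the cell type markers given with a change were also named after their values were seen. Alternatives were library size alone, RLE scaling, no filter, a replicate block, only the 8 libraries compared, each library left out in turn, DESeq2 1.42.0, and limma 3.58.1 with a trend on log2(TPM + 1) and log2(TPM + 0.1). A limma fit on TPM after TMM scaling of the TPM values was added after seeing the data. Some results that the rule names are not reported here. Promoter windows are RefSeq's on GRCh38.p14.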

Additional observations from a re-analysis of the deposited data

Results flagged for a closer look

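In B2M, replicate 4 of siCo stood apart from the other siCo libraries at 120.3 CPM, and replicate 1 of siYAP/TAZ#2 stood apart from its group at 87.65 CPM. In CD274, replicate 4 of siYAP/TAZ#1 stood apart at 0.4498 CPM. These are 3 of 27 groups of 4 libraries examined for a sample far from the others, and chance marks about 1 in 20 groups.

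The effects of the combinations differed, by edgeR's test of siYAP/TAZ#2 against siYAP/TAZ#1 on the log2 scale, in B2M by -0.251 (adjusted p = 0.0307), in TAP1 by -0.208 (0.027) and in TAP2 by -0.52 (0.000135). In all 3, every siYAP/TAZ#2 library was below every siYAP/TAZ#1 library. Among the genes named after their values were seen, they differed in HFE by -0.9 (7.25e-07), STAT2 by 1.06 (7.59e-08), IRF1 by -0.333 (0.00418), CMTM6 by 0.382 (0.0122), CMTM4 by 0.85 (6.29e-08), GSK3B by 0.308 (0.000332) and SPOP by 0.264 (0.0394). Libraries of the 2 combinations did not overlap in these except in CMTM6 and SPOP. All genes of this paragraph were listed because this same comparison called them, so the separation of their libraries is no further support. The share of all genes whose libraries do not overlap was not counted. Of the markers, the epithelial cadherin CDH1 differed by -0.505 (9.33e-05) and the integrin ITGAX by 0.687 (0.000213).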

How the results depend on the processing

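The scale mattered most. The median log2 change of all genes was 0.02 and 0.02 against siCo, 0.20 and 0.21 when scaled by library size alone, 0.19 and 0.24 on log2(TPM + 1), and 0.33 and 0.40 on log2(TPM + 0.1). Of genes called with siYAP/TAZ#1 and siYAP/TAZ#2, 46.9% and 49.7% were higher, against 75.5% and 76.2% under library size alone, then 91.8% and 94.7% on log2(TPM + 1). Over all genes, 7530 and 8244 were called against siCo and 3262 between the combinations. On log2(TPM + 1) these became 1892, 3717 and 117, on log2(TPM + 0.1) 2309, 4067 and 118, and 1715 between the combinations after TMM scaling of TPM. Leaving out each library gave 6595 to 9174, 7430 to 9507 and 2541 to 5127, the last without replicate 1 of siYAP/TAZ#2.

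Of the 9 genes, 4 were called higher and 3 lower with siYAP/TAZ#1. The lower calls became 0 with library size alone and 1 with no filter. On log2(TPM + 1) 0 were higher and 0 lower, on log2(TPM + 0.1) 1 and 0, and after TMM scaling of TPM 2 and 1. With siYAP/TAZ#2, 2 were higher and 2 lower. The higher calls became 4 with library size alone, and 1 with RLE scaling, no filter, only the 8 libraries, or TMM-scaled TPM. The lower calls became 1 with library size alone, 0 on both unscaled TPM scales and 1 on TMM-scaled TPM. Between the combinations the 2 lower calls became 0 with library size alone, only the 8 libraries, and all 3 TPM scales, and 1 with no filter. Leaving out each library gave 2 to 5 higher and 1 to 3 lower calls with siYAP/TAZ#1, 1 to 2 and 2 with siYAP/TAZ#2, and 0 to 3 lower between them. Over all alternatives, the 9 genes kept direction and side of the threshold in 442 values, lost a call in 82, gained one in 14 and changed sign in 29. The cause was not tested.

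The deviations of same-numbered libraries of different groups had correlations from -0.153 to 0.208, over 0.1 in 4 of 12 pairs. Of these, 3 were the pairs of replicate 4 (0.193, 0.149 and 0.208). A differently numbered pair, replicate 2 of siYAP/TAZ#1 with replicate 1 of siYAP/TAZ#2, reached 0.204. Because the labels name no batch, the numbers were not taken to pair samples in the main fit. An effect shared by the libraries of replicate 4 was not tested. With the replicate block, 7621, 8266 and 3266 genes were called, 5 of the 9 were higher with siYAP/TAZ#1 (HLA-B and B2M gained, HLA-E lost) and 1 with siYAP/TAZ#2 (NLRC5).

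Signs turned as follows, each value a log2 change, with log2(TPM + 1) before log2(TPM + 0.1). Against siCo with siYAP/TAZ#1, TAP1 was 0.163 and 0.176, CD274 0.058 and 0.118, PSMB7 0.156 and 0.158, NFYC 0.0545 and 0.0559, IFNGR2 0.0447 and 0.0473, STAT3 0.0302 and 0.0307, CSNK2A1 0.103 and 0.104, STAT2 0.266 and 0.303, GSK3B 0.195 and 0.205, and CMTM6 0.019 and 0.0221. With siYAP/TAZ#2, B2M was 0.387 and 0.389, TAP1 0.0242 and 0.0256, CD274 0.212 and 0.476, PSMB7 0.203 and 0.204, NFYC 0.187 and 0.192, IFNGR2 0.0219 and 0.0225, JAK1 0.123 and 0.125, STAT3 0.137 and 0.139, NFKBIA 0.0808 and 0.0815, CSNK2A1 0.331 and 0.334, and IRF1 0.0779 and 0.084. Between the combinations, HLA-C was 0.0225 and 0.0241, NLRC5 0.109 and 0.115, and CD274 0.154 and 0.358. After TMM scaling of TPM, CD274 was 0.0566 with siYAP/TAZ#2 and 0.114 between the combinations, NLRC5 0.0313 between them, and CMTM6 -0.00128 with siYAP/TAZ#2. With library size alone, B2M was 0.12 with siYAP/TAZ#2 and GSK3B 0.0313 with siYAP/TAZ#1.

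Values near 0 also turned. HLA-E between the combinations was -0.00263 with RLE scaling, -0.00953 with no filter, -0.0027 in DESeq2, and -0.0449 to 0.0354 with a library left out. CMTM6 with siYAP/TAZ#2 was -0.00374 with RLE scaling, -0.00633 with the replicate block and -0.00383 in DESeq2, and -0.0774 to 0.119 with a library left out. Leaving out 1 library gave -0.105 to 0.181 for HLA-B and -0.099 to 0.00467 for B2M with siYAP/TAZ#2, and -0.00793 to 0.0328 for IRF1 with siYAP/TAZ#1. Summing counts over all identifiers of a symbol could give no other value, since each of the 9 had 1. The effect of low depth is largest for CD274 and PDCD1LG2, with 3 to 52 reads per library.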
